A study of Homo sapiens with 2 samples.

Results

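Replication-high cells, the cells with the most transcripts of DNA replication genes, were chosen in 2 single-cell libraries of MDA-MB-231, an established human triple-negative breast cancer cell line. A cell was scored by its summed UMIs (transcript molecules counted by unique molecular identifiers) of MCM5, MCM6, CDC6, GINS2, CLSPN, CCNE2, UHRF1 and PCNA per 10000 UMIs. The members were chosen by this score and were the 10% of cells with the highest score in each library, without any cell that was also among the 10% highest for the mitotic genes CCNB1, CDC20, PLK1, CENPF, TOP2A, UBE2C, KIF20A and DLGAP5. This gave 1992 of 19979 cells, 1243 of 12487 at D21 and 749 of 7492 at D0. They were set against the low-score cells, the 50% of each library with the lowest score, 6244 cells at D21 and 3746 at D0.

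The D21 revertant cells had grown for 21 days in RPMI-1640 without methionine but with 100 µM homocysteine and 1.5 µM vitamin B12. The D0 parental cells had grown in RPMI-1640 with 100 µM methionine, and for this sample the labels give no vitamin B12 level. Both media held dialysed fetal bovine serum and antibiotics, and 1 library was made per condition, so that no comparison has a replicate and no p-value is given. Intervals are 95% intervals for counting error only.

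Before S phase, the origin recognition complex, CDC6 and CDT1 load the MCM helicase onto DNA, a step called licensing. CDC7 and cyclin-dependent kinases then recruit CDC45 and the GINS complex, and the helicase starts to unwind. Many of these genes are switched on by E2F transcription factors once the retinoblastoma protein has been phosphorylated at the passage from G1 to S phase, and their transcripts are highest in late G1 and S phase. Histone messages also accumulate in S phase, when new DNA has to be packed, whereas the mitotic genes follow in G2 and M phase.

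The libraries had nearly equal totals, 199817213 UMIs at D21 and 199799447 UMIs at D0, but cells at D21 were shallower, with a median of 12022 UMIs, against 18908 UMIs at D0. Of the cell barcodes, 21 occurred in both libraries, with 1 of these among the replication-high cells of each. Of 10 markers listed for other cell types (among them CD3E, PTPRC, CD68, LYZ, HBB, ALB, PECAM1, EPCAM and COL1A1), 2 reached 10 CPM in both libraries, CD68 and EPCAM. EPCAM is an epithelial marker and does not tell another cell type from a breast cancer line. The T cell marker CD3E was at 0 in every group. The summed level of the 10 markers, EPCAM included, was 33.5 CPM at D21 and 48.9 CPM at D0 in replication-high cells. In low-score cells it was 42.5 CPM at D21 and 51.5 CPM at D0. CPM are the UMIs of a gene summed over the cells of a group, per 1000000 UMIs of that group.

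The score divided the cells along a continuum and not at a gap. The lowest score inside was 8.927 and the highest outside 8.925 at D21, against 9.666 inside and 9.665 outside at D0, and 348 cells at D21 and 200 cells at D0 lay within 5% of the limit. Low-score cells reached 2.89 at D21 and 2.55 at D0. A score rested on few molecules, with a median of 13 score UMIs per replication-high cell at D21 and 23 at D0, and 17.0% of D21 cells and 13.5% of D0 cells had none. The mitotic criterion removed 6 cells at D21 and 0 at D0. CLSPN, which activates the checkpoint kinase CHEK1, gave the most UMIs to the score, 28.4% at D21 and 26.2% at D0. These values only describe how the cells were selected.

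Depth and quality of the selected cells lay close to those of the low-score cells. The median was 10915 UMIs and 3681 genes in replication-high cells, against 10972.5 UMIs and 3544 genes in low-score cells at D21. At D0 it was 18428 UMIs and 5027 genes, against 16828 UMIs and 4604.5 genes. The median mitochondrial share was 6.36% against 6.87% at D21 and 5.59% against 5.88% at D0. The doublet caller Scrublet marked 2.25% of the replication-high cells at D21, against 3.96% of the low-score cells, and marked 0 cells at D0, where it therefore gives no information. In 4 equal groups of all cells, ordered from few to many UMIs, the replication-high share at D21 was 10.7%, 13.0%, 10.6% and 5.54%, and at D0 it was 7.26%, 13.8%, 13.9% and 5.02%, so that the deepest cells were chosen least often in both libraries.

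To compare the libraries at 1 depth, every cell was thinned to 5422 UMIs. With the D0 limit applied to both thinned libraries, 8.75% of D21 cells reached it, against the 10.0% of D0 cells that the limit itself fixes. This is a description with the selection score in 2 single libraries. Unthinned, 7.82% of D21 cells reached the D0 limit. The mean number of score UMIs per thinned cell was 2.08 in both libraries. Of the replication-high cells, 69.4% at D21 and 65.3% at D0 were chosen again after thinning.

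The selected cells were also described with genes that the score did not use. Like the score genes, many of these have transcripts that are highest in late G1 and S phase. They therefore cannot tell S phase from late G1. Selection by the score also favours a high level of genes that vary with it. Of 57 other genes of licensing, origin firing and the replication fork, 54 reached 10 CPM in replication-high or low-score cells of each library, and 44 of these were at least 1.5-fold higher in replication-high cells in both libraries. Over all genes, 8.07% of 9162 genes were higher by this size at D21, 10.3% of 9369 genes at D0, and 7.21% of 8983 genes in both. The reverse, a level at most 1/1.5 of that in low-score cells, was seen for 2.5% of genes at D21, 4.81% at D0 and 1.93% in both, and for 0 of the 54. The 3 lists together summed to 4715 CPM in replication-high cells and 2092 CPM in low-score cells at D21, and to 5184 and 1912 CPM at D0. Genes were counted by size of the ratio alone, and the lists were written with earlier results of these data known. By contrast the summed clustered histone genes, whose transcripts mark S phase, were not highest in the selected cells, as described further below.

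**Figure D1:**
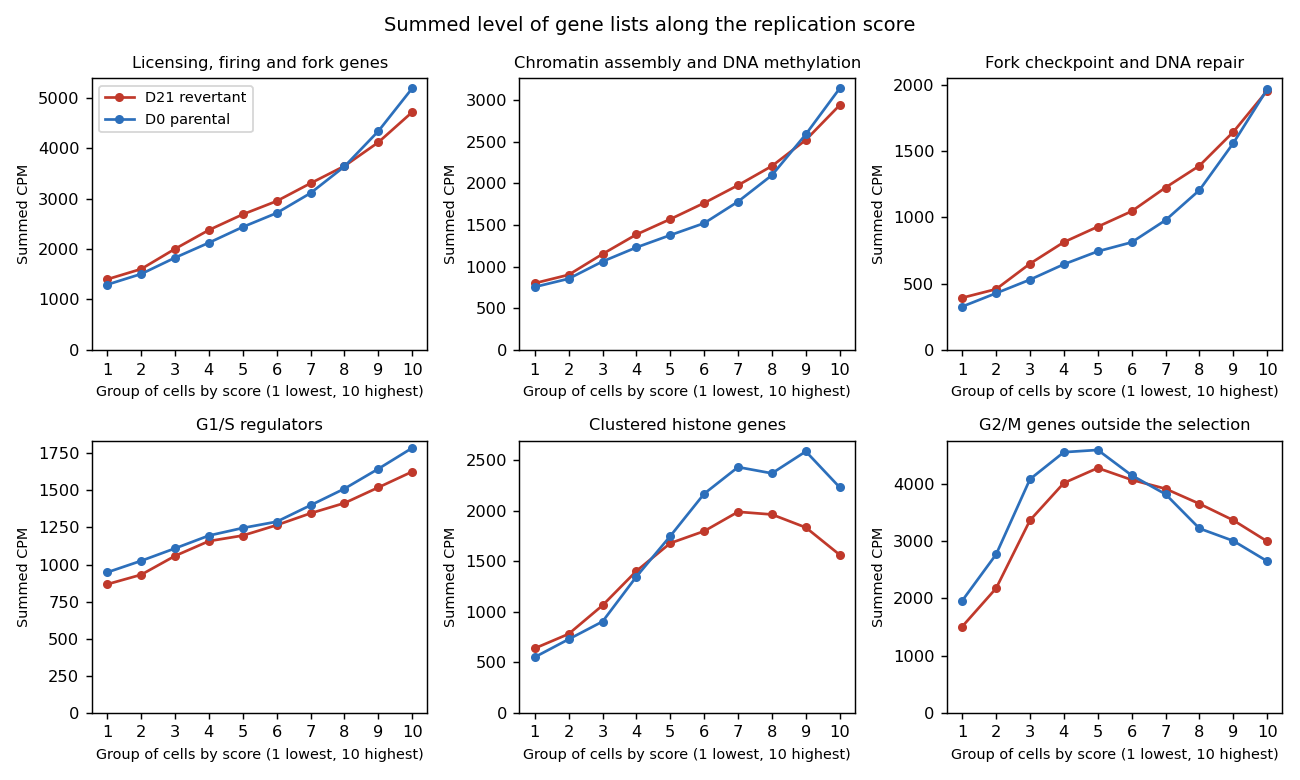
Summed CPM of 6 gene lists (vertical axes, from 0) in 10 equal groups of cells ordered by score (horizontal axes, 1 lowest and 10 highest), with D21 revertant cells in red and D0 parental cells in blue, 1 library each. Licensing, firing and fork genes climb to 4712 CPM at D21 and 5184 CPM at D0 in the last group, whereas clustered histone genes and G2/M genes peak before it.

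No gene was higher in one library and lower in the other by the 1.5-fold limit (0 of 8983). Of the 648 genes higher in both, 270 were at least 2-fold and 77 at least 3-fold higher in both. A further 69 genes passed the limit at D21 only and 245 at D0 only, and 552 of the 648 had the smaller ratio at D21. The score rested on fewer UMIs at D21, with a median of 13 per replication-high cell, against 23 at D0. What part this had in the smaller ratios was not tested. The median log2 ratio of all genes was 0.02 at D21 and 0.00 at D0. Across the 8983 genes the log2 ratios of the libraries had a Pearson r of 0.94, a description over genes, which are not replicates.

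**Figure D2:**
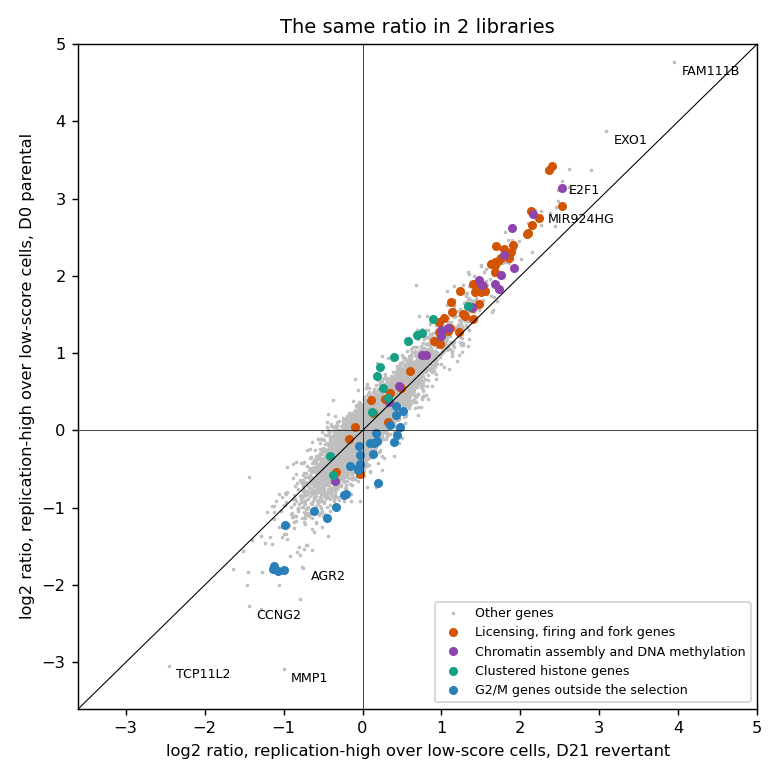
Each point is 1 of 8983 genes, with the log2 ratio of CPM in replication-high over low-score cells at D21 (horizontal) and at D0 (vertical), and the diagonal marks equal ratios. Score and mitotic selection genes are left out. Most licensing, firing and fork genes (median 1.42 at D21 and 1.79 at D0) lie above the diagonal, while most G2/M genes lie at or below 0 at D0.

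Among genes outside the score with at least 10 CPM in a group of each library, the ratio was largest for FAM111B (chromosome 11, 59107185 to 59127410, plus strand, GRCh38), which encodes a serine protease and is a paralogue of FAM111A, a protease of the replication fork. It had 139 CPM in replication-high and 8.98 CPM in low-score cells at D21, and 146 and 5.38 CPM at D0. The ratio was 15.5 at D21 (14.2 to 16.8) and 27.2 at D0 (24.5 to 30.3). In cells thinned to 5422 UMIs, 50.1% of replication-high and 4.40% of low-score cells had a FAM111B UMI at D21, and 51.5% and 2.48% at D0. Unthinned, these shares were 72.6% and 9.88% at D21 and 85.4% and 8.89% at D0. No cell type that should lack the gene was in the samples, and the low-score cells stand in its place.

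EXO1, an exonuclease of mismatch repair and DNA end resection (chromosome 1, 241847967 to 241895148, plus strand), followed with 61.5 CPM in replication-high and 7.22 CPM in low-score cells at D21, and 61.5 and 4.19 CPM at D0. CCNE1, the cyclin E that activates CDK2 at S phase entry, had 22.8 and 3.06 CPM at D21 and 28.3 and 2.73 CPM at D0, although its paralogue CCNE2 was part of the score. Other leading genes act in replication control. DTL directs the ubiquitin ligase that degrades CDT1 during replication, ORC1 is the subunit of the origin recognition complex that varies most over the cell cycle, MCM10 acts at helicase activation, and CDC25A is the phosphatase that activates CDK2. DTL was 6.14-fold higher at D21 and 10.4-fold higher at D0, ORC1 5.79-fold and 7.47-fold, MCM10 5.27-fold and 10.7-fold, and CDC25A 4.78-fold and 6.29-fold. BRIP1 and DNA2 are DNA helicases, UNG removes uracil from DNA, and DSCC1 belongs to a clamp loader that serves cohesion. Their ratios were 6.12 and 8.84 for BRIP1, 4.70 and 6.71 for DNA2, 5.20 and 7.02 for UNG, and 5.12 and 10.4 for DSCC1, at D21 and at D0 in each case. HELLS, a chromatin remodeller of DNA methylation, was 5.77-fold and 8.81-fold higher.

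Among transcription factors, E2F1 and the repressor E2F8 were in this group, as were TCF19 and ZNF367. E2F1 had 68.4 CPM in replication-high and 11.9 CPM in low-score cells at D21, and 114 and 12.2 CPM at D0. E2F8 was 5.55-fold higher at D21 and 7.83-fold at D0. E2F2 did not reach 10 CPM at D21 and was therefore not ranked, and was chosen after its values were seen because its ratio was above that of FAM111B, 17.6 at D21 and 59.8 at D0. It had 8.52 CPM in replication-high and 0.483 CPM in low-score cells at D21, and 11.4 and 0.190 CPM at D0. Its low-score level rested on 41 UMIs at D21 and 15 UMIs at D0.

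Some leading genes belonged to none of the lists. Beside FAM111B and DTL these were WDR76, LRRC26, RIBC2, TCF19, ZNF367 and MIR924HG. MIR924HG, a long noncoding RNA gene that hosts a microRNA (chromosome 18, 39206924 to 39800318, minus strand), was the most abundant of the 20 leading genes, with 313 CPM in replication-high and 65.5 CPM in low-score cells at D21, and 303 and 42.2 CPM at D0. Its level climbed in every step of the 10 groups of cells ordered by score, from 13.3 to 313 CPM at D21 and from 12.9 to 303 CPM at D0. A MIR924HG UMI was found in 68.9% of thinned replication-high and 19.5% of thinned low-score cells at D21, and in 68.1% and 13.3% at D0. Unthinned, these shares were 83.8% and 31.7% at D21 and 91.7% and 30.7% at D0. LRRC26, a regulatory subunit of BK potassium channels, had 59.1 and 10.7 CPM at D21 and 60.0 and 6.95 CPM at D0.

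**Figure D3:**
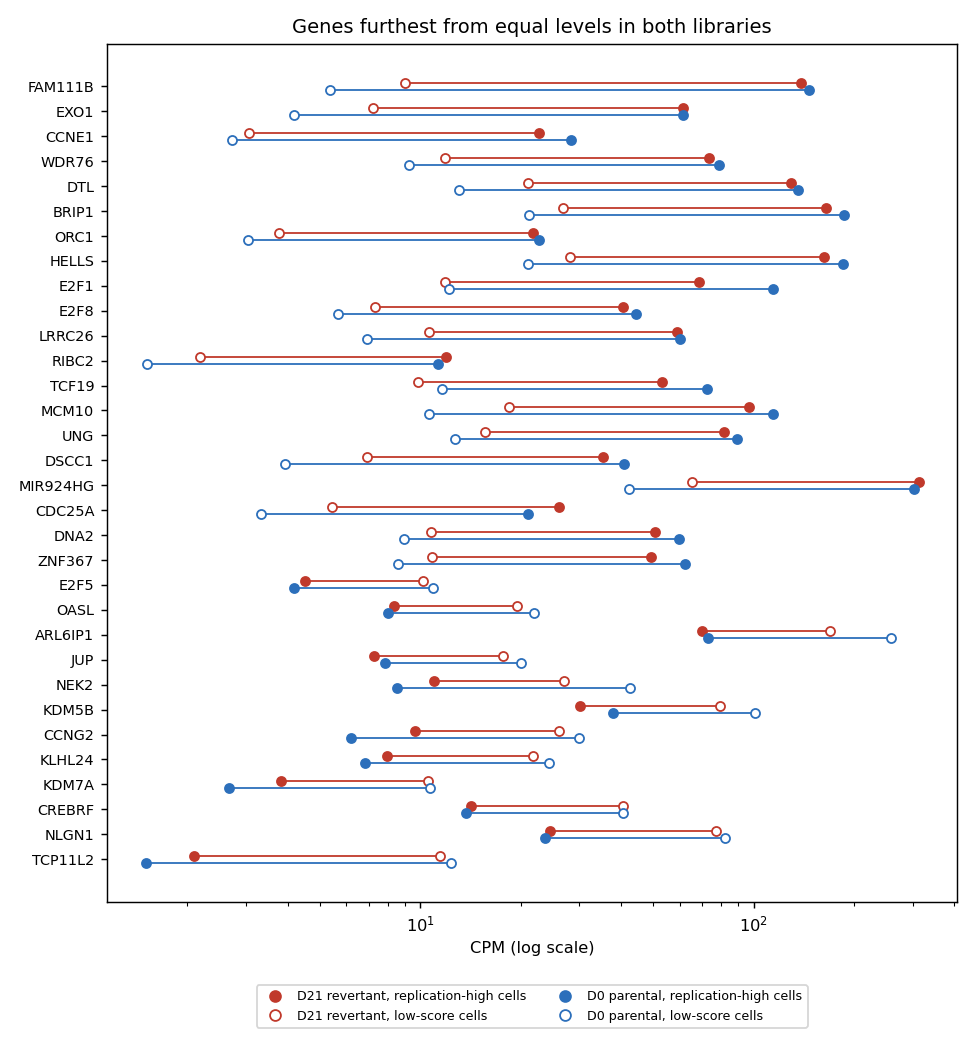
CPM on a log axis of the 20 genes with the highest (top) and the 12 with the lowest (bottom) ratio in both libraries, in replication-high cells (filled) and low-score cells (open), at D21 (red) and D0 (blue), 1 library each. For the upper genes other than E2F1 (68.4 CPM at D21 and 114 CPM at D0) the filled points of the libraries lie within 1.5-fold of each other (FAM111B 139 CPM at D21 and 146 CPM at D0), and for most of them the open points lie further left at D0 (8.98 CPM at D21 and 5.38 CPM at D0).

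Since E2F sites are the best known promoter feature of such genes, promoters from the RefSeq table (GRCh38.p14, 250 bases before to 50 bases after the start) were searched on both strands for the E2F words TTTCCCGC, TTTGGCGC, TTTCGCGC and TTTGCCGC. A promoter with several words was counted once. Of the genes higher in both libraries, 531 of 648 had a promoter in the table (81.9%), and 88 of these held a word (16.6%). Of all genes tested, 7415 had a promoter (82.5%) and 449 held a word (6.06%), and 908 of all 27305 listed promoters did (3.33%). In the licensing list 5 of 12 promoters held a word (41.7%) and in the checkpoint and repair list 5 of 24 (20.8%). The G2/M genes outside the selection, of which 0 were higher in both libraries, had a word in 3 of 25 promoters. This share was also above that of all genes tested. The genes lower in both libraries, the firing and the fork list and the 20 leading genes had promoters for fewer than 80% of their members, and the share is void there.

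Sequences are shown for the 6 leading genes whose listed promoter held a word, so that the positions can be compared, and no share is drawn from them. They run from 100 bases before to 25 bases after the start in the RefSeq table, 5′ to 3′ on the strand of the gene. This start can differ from that of the GENCODE gene. For EXO1 the GENCODE gene given above begins upstream of the whole sequence shown. Capitals mark the E2F words or their reverse complements. Coordinates are of GRCh38.p14, EXO1 at chr1:241848104-241848228 (plus), DTL at chr1:212035648-212035772 (plus), HELLS at chr10:94545688-94545812 (plus), E2F1 at chr20:33686361-33686485 (minus), CDC25A at chr3:48188393-48188517 (minus) and ZNF367 at chr9:96418346-96418470 (minus).
EXO1: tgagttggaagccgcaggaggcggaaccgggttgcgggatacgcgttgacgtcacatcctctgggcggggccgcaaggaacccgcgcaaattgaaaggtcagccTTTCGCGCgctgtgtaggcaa
DTL: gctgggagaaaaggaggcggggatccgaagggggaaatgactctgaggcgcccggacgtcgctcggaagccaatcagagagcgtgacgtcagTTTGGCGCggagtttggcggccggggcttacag
HELLS: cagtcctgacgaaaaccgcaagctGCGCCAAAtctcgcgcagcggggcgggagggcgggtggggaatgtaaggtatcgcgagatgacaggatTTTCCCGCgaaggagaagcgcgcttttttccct
E2F1: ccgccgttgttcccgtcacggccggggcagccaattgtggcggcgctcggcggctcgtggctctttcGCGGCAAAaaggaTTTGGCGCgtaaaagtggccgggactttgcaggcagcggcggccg
CDC25A: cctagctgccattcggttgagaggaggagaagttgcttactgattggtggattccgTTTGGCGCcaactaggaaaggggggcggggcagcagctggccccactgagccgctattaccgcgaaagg
ZNF367: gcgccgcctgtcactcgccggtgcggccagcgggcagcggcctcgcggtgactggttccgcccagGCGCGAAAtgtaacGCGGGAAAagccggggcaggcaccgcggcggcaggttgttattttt
The words began 5 bases after the RefSeq start in EXO1, 8 bases before it in DTL, 76 and 8 bases before it in HELLS, 33 and 20 in E2F1, 44 in CDC25A and 35 and 21 in ZNF367. A match describes the letters only, and binding was not measured.

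Of the licensing genes, 9 of 13 were higher in both libraries and 0 lower, with a median log2 ratio of 1.52 at D21 and 1.80 at D0. MCM3, a helicase subunit, had 284 CPM in replication-high and 67.1 CPM in low-score cells at D21, and 344 and 59.3 CPM at D0. CDT1, the MCM loader, had 48.0 and 14.9 CPM at D21 and 58.0 and 11.1 CPM at D0, and its inhibitor GMNN (geminin) 224 and 77.8 CPM at D21 and 279 and 80.2 CPM at D0. ORC subunits were not alike: ORC1 and ORC6 were among the 9, whereas ORC2, ORC3, ORC4 and ORC5 had ratios between 0.890 and 1.40 in both libraries.

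Of 14 firing genes, 12 were higher in both. CDC45, the helicase cofactor, had 52.5 and 12.3 CPM at D21 and 66.6 and 11.3 CPM at D0. DBF4, which activates the CDC7 kinase, had 75.5 and 60.6 CPM at D21 and 81.1 and 74.9 CPM at D0, while CDC7 itself was 2.79-fold and 3.11-fold higher.

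Of 27 polymerase and fork genes, 23 were higher in both, with medians of 1.43 and 1.87. The catalytic subunit of the priming polymerase, POLA1, had 153 and 34.7 CPM at D21 and 163 and 25.7 CPM at D0, and its primase partner PRIM1 64.6 and 14.7 CPM at D21 and 76.8 and 10.7 CPM at D0. The flap nuclease FEN1 had 114 and 33.0 CPM at D21 and 178 and 34.7 CPM at D0. Subunits of polymerase delta differed, since POLD3 was 3.36-fold higher at D21 and 4.71-fold higher at D0, while POLD4 had 77.2 and 97.4 CPM at D21 and 78.6 and 114 CPM at D0, and POLD2, like POLE4 of polymerase epsilon and RPA3 of the single-strand binding complex, did not reach 1.5-fold in either library. Other non-catalytic subunits were higher in both libraries, among them POLA2, PRIM2, POLE2 and RPA2.

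Of 11 genes of deoxynucleotide supply and turnover, 9 were higher in both libraries. The ribonucleotide reductase subunit RRM2 had 252 and 79.7 CPM at D21 and 213 and 48.0 CPM at D0, and thymidylate synthase TYMS 351 and 122 CPM at D21 and 352 and 101 CPM at D0. DTYMK, which phosphorylates thymidine monophosphate, and SAMHD1, which degrades deoxynucleotides, were the 2 others, with ratios between 1.10 and 1.29. De novo purine and pyrimidine synthesis was less far apart: 3 of 14 genes were higher in both libraries, with medians of 0.48 at D21 and 0.71 at D0. These 3 were CTPS1, GMPS and PPAT.

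Because the media differed in methionine, the methionine cycle and folate enzymes were described as a list. Of 14 genes, 2 were higher and 1 lower in both libraries, with medians of 0.27 and 0.30. MTHFD1, a cytosolic folate enzyme, had 77.4 CPM in replication-high and 39.8 CPM in low-score cells at D21, and 78.8 and 32.5 CPM at D0. SHMT1, the cytosolic serine hydroxymethyltransferase that supplies folate carbon to thymidylate synthesis, had 18.7 and 11.2 CPM at D21 and 25.6 and 12.7 CPM at D0. Methionine synthase MTR, the enzyme that makes methionine from homocysteine, had 35.2 and 29.4 CPM at D21 and 44.2 and 32.6 CPM at D0, ratios of 1.20 and 1.36. CTH, which breaks down cystathionine, was the lower one.

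Of 29 checkpoint and repair genes, 25 were higher in both libraries and all 29 had a ratio above 1 in both, with medians of 1.53 and 1.77. BRCA1, of homologous recombination, had 111 and 34.0 CPM at D21 and 99.9 and 20.9 CPM at D0. The mismatch repair protein MSH6 was 3.21-fold higher at D21 and 3.74-fold higher at D0.

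Of 19 genes of chromatin assembly and DNA methylation, 16 were higher in both. CHAF1A and CHAF1B, subunits of the histone chaperone that follows the fork, were 3.47-fold and 3.72-fold higher at D21 and 4.83-fold and 6.16-fold at D0. SLBP, which binds the stem-loop of histone messages, had 213 and 74.9 CPM at D21 and 235 and 63.7 CPM at D0. The maintenance DNA methyltransferase DNMT1 had 232 and 116 CPM at D21 and 285 and 115 CPM at D0. ASF1B was 3.38-fold and 4.02-fold higher, whereas its paralogue ASF1A had ratios of 0.788 and 0.634.

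Cohesion genes were mixed. Of 10, 5 were higher in both libraries, among them ESCO2, the acetyltransferase that locks cohesin on replicated DNA, with 63.1 and 17.5 CPM at D21 and 57.1 and 12.7 CPM at D0. The cohesin subunit RAD21 had 162 and 164 CPM at D21 and 155 and 180 CPM at D0.

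Of 18 G1/S regulators, 13 were higher in both libraries, with medians of 0.97 and 1.25. The pocket protein RBL1 was 2.29-fold and 2.92-fold higher and RB1 1.57-fold and 1.63-fold. Cyclin D1 (CCND1) and its kinase partner CDK6, which act earlier in G1, did not stand apart: CCND1 had 406 and 381 CPM at D21 and 429 and 430 CPM at D0, and CDK6 147 and 127 CPM at D21 and 137 and 138 CPM at D0.

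**Figure D4:**
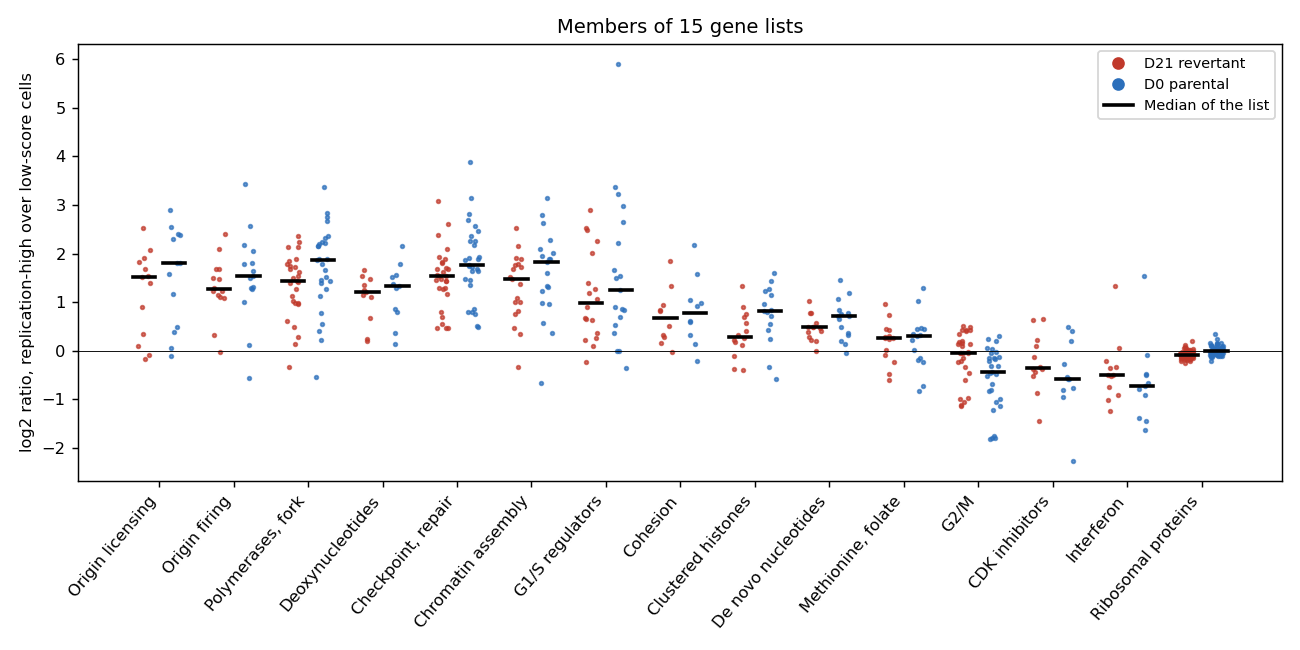
Log2 ratio of CPM in replication-high over low-score cells (vertical axis) for each member of 15 gene lists that reached 10 CPM in that library, at D21 (red, left of each pair) and D0 (blue, right), with black bars at the median of the list. The replication, repair and chromatin assembly lists have medians between 1.26 and 1.87, and the CDK inhibitor and interferon lists have medians below 0 in both libraries.

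Clustered histone genes behaved differently from the replication genes along the score. Their messages mostly lack a poly(A) tail, and the libraries were made from poly(A) RNA. Of 71 genes 13 reached 10 CPM in both libraries, and some, such as HIST1H1B and HIST1H1D, were at 0 in all groups. Near-identical copies share sequence, and counts of single histone genes are uncertain for that reason. Of the 13 genes 4 were higher in both libraries, HIST1H3B, HIST1H2AG, HIST1H2AH and HIST1H2AM, and the medians were 0.29 at D21 and 0.82 at D0. The sum over the list was 1555 CPM in replication-high and 1175 CPM in low-score cells at D21, and 2232 and 1135 CPM at D0.

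Along the 10 groups of cells ordered by score, the histone sum at D21 was highest in group 7 with 1990 CPM and was 1564 CPM in group 10. At D0 it was highest in group 9 with 2588 CPM and was 2232 CPM in group 10. HIST1H4C, the most abundant histone gene, peaked in group 8 at D21 (1027 CPM, against 777 CPM in group 10) and in group 9 at D0 (1792 CPM, against 1524 CPM in group 10). Thus, by the sum, the cells with the highest replication score were not those with the most histone transcripts. The 4 histone genes higher in both libraries were not alike. HIST1H2AH peaked in group 10 at D21 (36.5 CPM) and group 9 at D0. HIST1H2AG peaked in group 9 at D21 and group 10 at D0 (23.9 CPM). HIST1H2AM peaked in group 9 in both libraries, and HIST1H3B in group 7 at D21 and group 9 at D0. Within the replication-high cells, the upper 50% by score had less histone RNA than the lower 50% in both libraries, 1522 against 1583 CPM at D21 and 2055 against 2392 CPM at D0, while licensing genes were higher there, 1256 against 1131 CPM at D21 and 1420 against 1292 CPM at D0. The upper 50% was also shallower, with a median of 10319.5 against 11686 UMIs at D21 and 17649 against 19323 UMIs at D0. The histone sum differed with depth by more than with score, 1683 CPM in the third of the members with most UMIs and 1373 CPM in the third with fewest at D21, and 2494 and 1673 CPM at D0. The part of depth in the histone values was not tested.

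The G2/M genes outside the selection had 0 of 29 genes higher and 6 lower in both libraries. These were CCNB2, AURKA, PTTG1, CENPA, CENPE and CDC25B. AURKA, a spindle pole kinase, had 65.3 and 137 CPM at D21 and 45.7 and 161 CPM at D0. Of the 29 genes, 5 had a ratio above 1 in both libraries and 16 a ratio below 1 in both. Among the genes outside the 6, CDK1 had 159 and 119 CPM at D21 and 177 and 143 CPM at D0. The proliferation marker MKI67 had 169 and 128 CPM at D21 and 171 and 190 CPM at D0. KIF23 had 63.2 and 59.1 CPM at D21 and 50.9 and 56.8 CPM at D0. The list peaked in group 5 of 10 in both libraries (4280 CPM at D21 and 4595 CPM at D0), which lies among the low-score cells, and 17.3% of the cells of that group at D21 and 18.3% at D0 were in the mitotic 10% of their library. Without the 10% of cells highest for mitotic genes among the low-score cells, the median of the list was 0.52 at D21 and 0.30 at D0, against -0.04 and -0.43 with them. In cells of that mitotic 10% the list had 8078 CPM at D21 and 9233 CPM at D0, against 2978 and 2650 CPM in replication-high cells.

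Levels of the licensing list in barcodes under 100 UMIs, which hold mainly free RNA, were 697 CPM at D21 and 696 CPM at D0. They lay between those of the replication-high cells (1189 CPM at D21 and 1353 CPM at D0) and those of the low-score cells (489 and 443 CPM). The part of free RNA in the ratios was not tested.

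The 12 genes lowest against the low-score cells were TCP11L2, NLGN1, CREBRF, KDM7A, KLHL24, CCNG2, KDM5B, NEK2, JUP, ARL6IP1, OASL and E2F5. CCNG2, an unconventional cyclin linked to cell cycle arrest, had 9.67 CPM in replication-high and 26.2 CPM in low-score cells at D21, and 6.20 and 29.9 CPM at D0. KDM5B, a demethylase of histone H3 lysine 4, had 30.1 and 79.5 CPM at D21 and 37.9 and 101 CPM at D0, and NLGN1, a neuronal adhesion protein, 24.6 and 76.9 CPM at D21 and 23.7 and 82.0 CPM at D0. Along the 10 groups by score KDM5B had 93.2 CPM in group 1 and 30.2 CPM in group 10 at D21, and 114 and 37.9 CPM at D0. NLGN1 was instead highest in group 4, with 90.7 CPM at D21 and 94.1 CPM at D0, and the mitotic kinase NEK2 in group 4 at D21 and group 3 at D0. Without the mitotic 10% among the low-score cells, the log2 ratio of NEK2 was -0.33 at D21 and -1.24 at D0, against -1.29 and -2.32 with them, and no longer passed the limit at D21. That of ARL6IP1 was -0.61 and -1.04, against -1.27 and -1.83, and that of NLGN1 was -0.95 and -0.88, against -1.65 and -1.79. Of the 173 lower genes, 24 differed by 2-fold or more in each library.

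Of 11 genes of CDK inhibition and cell cycle exit, 0 were higher and 2 lower in both libraries, CCNG2 and CDKN1C, an inhibitor of G1 kinases. CDKN1A (p21) had the opposite direction, with 69.1 CPM in replication-high and 44.3 CPM in low-score cells at D21, and 73.2 and 51.9 CPM at D0. It passed 1.5-fold at D21 (1.56) and not at D0 (1.41), and so did the stress gene GADD45A (1.57 and 1.33).

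Of 11 interferon response genes 3 were lower (IFIT1, ISG20 and OASL) and 1, OAS3, higher in both libraries. IFIT1, an antiviral RNA binding protein, had 12.8 and 25.9 CPM at D21 and 15.2 and 39.5 CPM at D0. OAS3, a synthetase of 2-5A, had 12.2 and 4.82 CPM at D21 and 10.8 and 3.73 CPM at D0. Of 10 ATF4 targets 2, DDIT3 and DDIT4, were lower in both libraries and 0 higher, and of the sterol (21), fatty acid (10), ribosomal protein (82) and mitochondrially encoded (13) genes, 0 were higher or lower in both.

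Of the list of AGR2, SPANXB1, SOX4, CST1, AFF3, KRT81 and ADIRF, 2 of 7 genes were lower in both libraries. AGR2, a disulfide isomerase of the secretory pathway, had 46.4 CPM in replication-high and 78.0 CPM in low-score cells at D21, and 60.4 and 207 CPM at D0. SOX4, a transcription factor, had 32.9 and 67.0 CPM at D21 and 63.5 and 151 CPM at D0. The list varied with depth inside the replication-high cells: it had 960.3 CPM in the third of the members with most UMIs and 2617 CPM in the third with fewest at D21, and 897.0 and 2442 CPM at D0. The replication genes of the 3 lists differed little by the same division, 4719 and 4753 CPM at D21 and 5100 and 5134 CPM at D0. What part depth had in the AGR2 values was not tested.

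Replication-high cells of D21 were then set against those of D0. By size, 2.24% of 9244 genes were at least 1.5-fold higher at D21 and 5.03% were lower, 207 and 465 genes. In cells thinned to equal UMIs, 323 genes were higher and 615 lower, and the count without a CPM floor was 2278 higher and 2803 lower. The same comparison in low-score cells gave 141 higher and 402 lower of 9156 genes. Of the 200 genes higher in replication-high cells that were measured in both groups, 90 (45.0%) were also higher in low-score cells, and of the 414 lower ones 266 (64.3%) were also lower.

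The replication genes had small differences between the libraries, in opposite directions in the 2 groups of cells. The median log2 ratio of D21 over D0 for the 3 lists was -0.19 in replication-high cells, with 14 of 55 genes above 1, and 0.19 in low-score cells, with 38 of 47 above 1. Over all genes the medians were -0.02 and -0.03. After thinning to equal depth the median in replication-high cells was -0.07. The limit for selection was lower at D21 (8.93, against 9.67 at D0), and the summed score genes were 1145 CPM at D21 and 1223 CPM at D0 in the selected cells. The part of the selection limit in this difference was not tested.

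Single genes went further. E2F1 had 68.4 CPM in replication-high cells at D21 and 114 CPM at D0, a ratio of 0.60 (0.56 to 0.65), against 0.98 in low-score cells. FEN1 had a ratio of 0.64 (0.60 to 0.68) and RNASEH2A, a subunit of the nuclease that removes ribonucleotides, 0.63 (0.55 to 0.73). The histone gene HIST1H4C had 0.51 (0.50 to 0.52), against 0.76 in low-score cells. The histone list was mixed in replication-high cells, with 10 of 16 genes above 1 and a median log2 ratio of 0.12. By size 3 of the 16 were lower, HIST1H4C, HIST1H2AM (0.60) and HIST1H3J (0.58), and 2 were higher. Over all genes 5.03% were lower and 2.24% higher. The summed list had 1555 CPM at D21 and 2232 CPM at D0 in these cells. In low-score cells 11 of 13 histone genes were above 1, with a median log2 ratio of 0.38. Other genes were close to equal, with 1.00 for EXO1 (0.91 to 1.10), 1.00 for TYMS and 1.03 for RRM1 (0.97 to 1.08).

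In the sterol list 17 of 22 genes were lower at D21 in replication-high cells and 0 had a ratio above 1, with a median log2 ratio of -0.81 there and -0.84 in low-score cells. INSIG1, which holds back the sterol sensor, had 32.6 CPM at D21 and 93.0 CPM at D0 in replication-high cells, and 40.0 and 129 CPM in low-score cells. In the fatty acid list 5 of 10 genes were lower, with a median of -0.64, and SCD, the stearoyl-CoA desaturase, had 77.3 CPM at D21 and 175 CPM at D0. The lipid genes thus differed between the libraries by about the same ratios whether cells had high or low replication scores.

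The genes furthest higher at D21 in replication-high cells were MMP1, AF121898.1, INHBA, SAA2, SAA1, RRAD, SCG5 and NUPR1. MMP1, an interstitial collagenase, had 54.3 CPM at D21 and 1.83 CPM at D0 (28 UMIs), a ratio of 29.7 (20.4 to 45.0), and 108 and 15.6 CPM in low-score cells, a ratio of 6.96. MMP1 was found in few cells: 14.8% of unthinned replication-high cells at D21 and 1.74% at D0 had a UMI, against 21.2% and 3.34% of low-score cells. After thinning to 5422 UMIs the shares were 10.5% and 0.401% in replication-high and 15.3% and 1.55% in low-score cells. SAA1, serum amyloid A, had 518 and 133 CPM in replication-high cells and 462 and 124 CPM in low-score cells, with reads that the near-identical SAA2 may share. All 5 genes of the list of CEMIP, SAA1, SAA2, FLG and NNMT were higher at D21 in replication-high cells, with a median log2 ratio of 1.52. In low-score cells 4 of the 5 were higher, with a median of 1.07. This list too varied with depth inside the replication-high cells. It had 1070 CPM in the third with most UMIs and 516 CPM in the third with fewest at D21, and 340 and 185 CPM at D0. What part depth had in its values was not tested. Among those furthest lower were C6orf223, ADGRG1, PLXNA4, LAPTM5, SEMA6B, LINC00243 and AP000844.2, with ratios between 0.06 and 0.25.

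**Figure D5:**
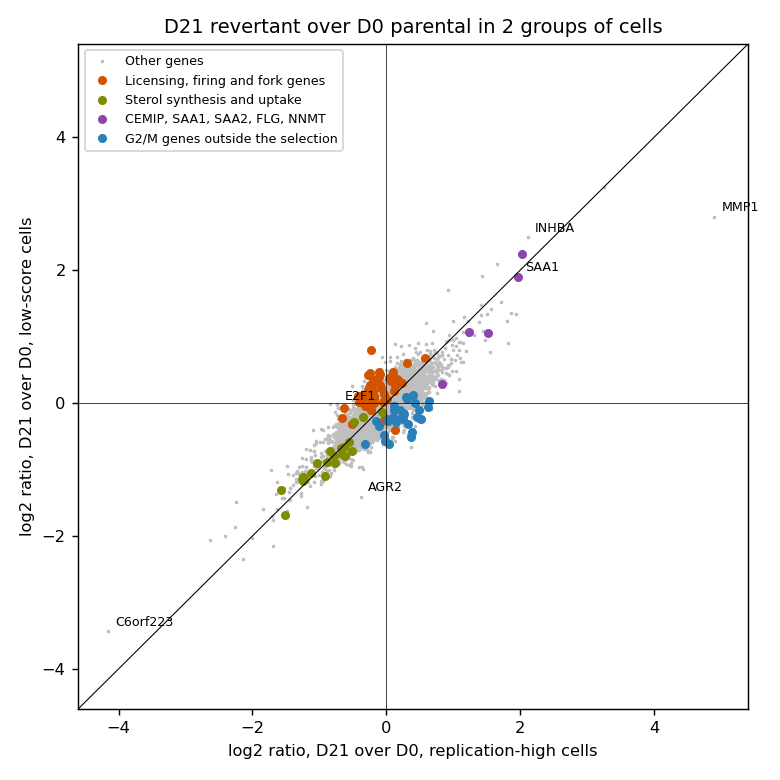
Each point is 1 of 8852 genes measured in both groups of cells, with the log2 ratio of D21 over D0 in replication-high cells (horizontal) and in low-score cells (vertical), 1 library each, and the diagonal marks equal ratios. Sterol genes lie along the diagonal below 0 (medians -0.81 and -0.84), most replication genes lie above it (medians -0.19 and 0.19), and MMP1 lies far below it.

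The ratio of replication-high to low-score cells differed most between the libraries for MMP1, AGR2, GDF15, AC004784.1 and MCM10, among genes whose intervals did not overlap. GDF15, a stress-induced cytokine, had 8.46 and 14.6 CPM at D21 and 3.46 and 15.7 CPM at D0. AC004784.1, a gene known by its clone name, had 11.0 and 6.87 CPM at D21 and 24.2 and 6.58 CPM at D0. MCM10 differed mainly in the low-score cells, 18.4 CPM at D21 and 10.6 CPM at D0, while replication-high cells had 97.2 and 114 CPM. With 1 library per condition these differences between libraries could not be tested against the variation between cultures. What part the fewer score UMIs per cell at D21 had in them was not tested either.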

How the data were processed

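Single-cell RNA libraries (10x Genomics Single Cell 3' v3.1), 1 of D21 revertant and 1 of D0 parental MDA-MB-231 cells, were analysed, grouped by the submitters' labels. The deposited values are UMI counts per gene and barcode, which the authors made with Cell Ranger 4 and GRCh38, not normalized and with empty droplets included. Cells had at least 5422 UMIs (D21) or 9009 UMIs (D0), at least 500 genes and at most 20% mitochondrial UMIs, which kept 12487 of 12525 and 7492 of 7503 barcodes. Doublets were kept. Scrublet (scanpy 1.11.5) marked 667 D21 cells and 0 D0 cells.

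UMI counts of all cells in a group were added up per gene and given as CPM. Genes with at least 10 CPM in either group were tested by size of the ratio only, at 1.5-fold, with exact conditional Poisson intervals (numpy 2.4.6, scipy 1.17.1, pandas 2.3.3). A group at 0 was set to 3 UMIs. No p-value was computed. The groups of cells held between 15328258 and 84857907 UMIs in all. Since each condition was sequenced once, variation between cultures is not covered. Gene positions are from GENCODE and promoter starts from the RefSeq table, both on GRCh38. The annotation used by the submitters is not stated. The computations were tested on simulated data.

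Members, the 25 gene lists and the rule for named genes were chosen with earlier results of these data known. The rule took the 20 highest and 12 lowest ratios in both libraries, the 8 highest and 8 lowest D21 over D0 ratios, up to 5 abundant members of each list with those past 1.5-fold in both libraries, and the 5 genes that differed most between libraries. Other list members named in the text were picked as examples with their values known. The 17 alternatives set at the start changed cell calling, depth, selection, comparison cells, scaling and the CPM floor. Some members of these groups are not reported here.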

Additional observations from a re-analysis of the deposited data

How the results depend on the processing

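Under 17 alternatives, and 1 chosen after seeing the data that left out the 21 barcodes shared by both libraries, 6 counts of genes stayed within 1.5 times of their value in 98 cases and moved further in 10. The number of replication genes higher in both libraries was between 41 and 46 (44 as reported) and of sterol genes lower at D21 between 16 and 19 (17 as reported). With a floor of 20 CPM, 100 genes were lower in both libraries (173 as reported), 130 were higher at D21 in replication-high cells (207 as reported) and 286 lower (465 as reported), since fewer genes were tested. With no floor beyond 3 UMIs, 2481 genes were higher in both libraries and 1319 lower, and 2278 were higher and 2803 lower at D21. In cells thinned to equal UMIs, 323 genes were higher at D21. Against all cells that were not selected, 351 genes were higher in both libraries (648 as reported) and 66 lower, and the comparison then holds cells just under the limit. Among 158 other results (medians of lists and log2 ratios of single genes), values kept within their limits in 2297 cases, moved in 545 and turned direction in 2. The median log2 ratio at D0 of the list of MMP1, PDE1C and SRGN, of which PDE1C was under 10 CPM, was -1.58 with the settings used, 0.25 for the top 20% by score and 0.041 with the UMI minimum doubled. The cause was not tested. No paired analysis was possible because each condition has 1 library. A score rests on few UMIs per cell, so cells near the limit are placed with little certainty.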
